A study of Mus musculus with 27 samples.

Results

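The control metastases were described on their own, using the 14 regions that carry the control label out of the 27 regions of the series. MC38 is a mouse colorectal cancer cell line of C57BL/6 origin. Cells carrying a nontargeting shRNA were injected into the portal vein of C57BL/6 mice aged 2 months, and the liver tumors that grew were sectioned and hybridised with a GeoMx panel of mouse transcriptome probes, whose deposited table holds 19615 targets per region. Areas were picked under immunofluorescence for pan-cytokeratin, desmin and nuclear stain. The segment analysed was what remained of each area after the desmin-positive cancer-associated fibroblasts had been set apart, so it could hold tumor cells together with any desmin-negative host cell. The regions came from 3 mice and the labels do not tie a region to a mouse. Some regions therefore shared an animal, no value here is a replicate of a condition, and no test was made. Every correlation below is a description over 14 regions that share mice and a common scaling.

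Several programs of tumor tissue recur in what follows. Interferons released by immune cells switch on antiviral effectors, chemokines and the machinery that shows peptides to T cells. Tumor cells far from blood vessels run short of oxygen, which stabilises hypoxia-inducible factor (HIF) and raises glucose transport, glycolysis and the vessel growth factor VEGF-A, while shortage of amino acids acts through the factor ATF4. Fibroblasts and macrophages lay down and remodel collagen around the tumor cells. In bulk regions such as these, fewer cells of a type and less RNA per cell cannot be told apart.

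The regions were scaled to a shared median over targets, a signal of 280, and a level is the log2 of this signal plus 1. Because the table used here holds no negative probe, the background was read from 1125 genes of odorant and other chemosensory receptors, which tumor and liver cells are not known to use. Percentile 95 of these genes lay at a log2 level of 7.86, a signal of 231, and 10824 targets (55.2%) had a mean level above it. The totals ran from 9977869 steps in region 14 to 26328208 in region 8, where a step is the spacing between neighbouring signal values and may be 1 count. Region 14 also had the highest background ratio, the median receptor gene over the median of all targets, at 0.571 against 0.504 in region 13, and the narrowest range of levels. Region 6 was the least like the others, with a median correlation over genes of 0.969 with the other regions, against up to 0.987 elsewhere. As a check for regions that share 1 library, the chi-square per degree of freedom between regions, taking 1 step as 1 count, was at least 4.16 in the 91 pairs, a value that covers counting error only.

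The segment was checked against markers of the cells it could hold. Macrophage and fibroblast markers were the best represented, with 16 of 20 above background in both lists. The macrophage markers not above background were Cd163, Marco, Clec4f and Vsig4, with medians of 181, 189, 160 and 152. Of 15 genes of epithelial identity only Krt8, a keratin, was above background, from 255 in region 2 to 458 in region 1, with a median of 307. Epcam had a median of 223 and Cdh1, which encodes E-cadherin, 220, both under the background limit of 231, with highest readings of 280 and 253. The keratins Krt7, Krt18, Krt19 and Krt20 stayed under the limit in every control region, with highest readings of 170, 219, 202 and 180. Of the keratin transcripts listed, only Krt8 was thus above background. T or NK cell markers were above background for 9 of 19 genes, hepatocyte markers for 6 of 18, B or plasma cell markers for 4 of 11, neutrophil markers for 3 of 13 and endothelial markers for 3 of 17. Des, which encodes desmin and marks the cells that were set apart, had a median of 256, just above the limit.

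The most abundant transcripts encoded histones, ribosomal proteins, actin and glycolytic enzymes. The 20 highest targets held 5.46% of all signal, the 100 highest 16.5% and the 1000 highest 44.0%. The 80 ribosomal protein genes together held 9.31%, and 51 of them were among the 100 highest. A probe reading is not corrected for how well each probe binds, so the order between genes is the order of readings and not of transcript numbers, and several histone and ribosomal protein genes have near-identical copies whose probes cannot be told apart here.

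H3c1, which encodes a replication-dependent histone, was the highest, from 53005 in region 7 to 100150 in region 2, with a median of 68904. Ptma, which encodes prothymosin, followed, from 53411 in region 7 to 85265 in region 2, with a median of 67869.7. Both were highest in region 2 and lowest in region 7. Among those that followed were Gm52800, Chic2, LOC118568634, Rps2, Ubb, Rplp0, Ppia, B2m, Gapdh, Rpl41, H4c17, H2bc11, Spp1, Rpl13, Actb, Rps3a1 and Rps4x. Of the 20 highest targets 19 were among the 50 highest of every region and 11 among the 20 highest of every region, so the top of the list differed little from region to region.

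Spp1, B2m and Gapdh had the largest relative spread among these 20, a measure explained below. Spp1, which encodes the secreted phosphoprotein osteopontin made by tumor cells and macrophages, ran from 27736 in region 11 to 76496 in region 6, with a median of 38508. B2m, the light chain shared by class I molecules, ran from 22697 in region 11 to 55107 in region 4, with a median of 47428. Gapdh, the glycolytic enzyme often used as a reference gene, ran from 26874 in region 14 to 62542 in region 6, with a median of 43420, a 2.33-fold difference that followed the hypoxia genes described below (r = 0.80 with the group of Ero1a). At the other end, Chic2 stayed within 48274 to 56076 and was among the 5 steadiest of the 1000 highest targets together with Rnaset2a, Pcbd2, Prpf38b and Gm52298. The highest reading of each of these 5 was at most 1.24-fold the lowest.

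To compare genes of unlike level, the SD of a gene's log2 level over the 14 regions was divided by the median SD of that gene and the 250 genes on either side of it in level. This relative spread is 1 for a typical gene. Above background it exceeded 2 for 660 genes (6.10%). The median SD above background was 0.156 log2 units, against 0.0529 if each step were 1 count and counting were the only source of spread, and at or below background it was 0.139 against 0.112.

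**Figure D1:**
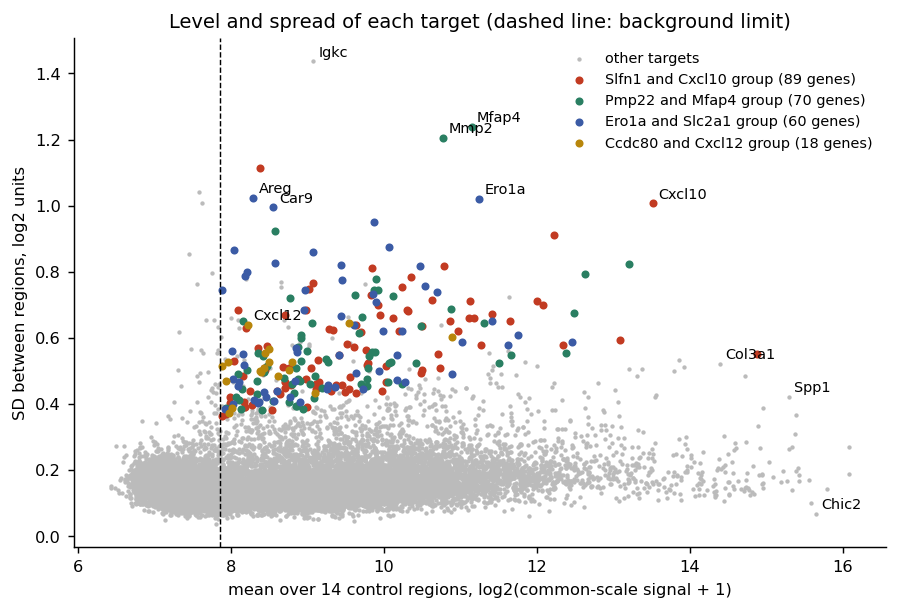
Each point is 1 of 19615 targets, with its mean log2 level over 14 control regions on the horizontal axis and its SD between regions, in log2 units, on the vertical axis. The dashed line is the background limit at 7.86. Colored points are the genes of the 4 groups of co-varying genes, and Igkc stands highest with an SD of 1.44.

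The gene with the largest relative spread was Igkc, the constant region of immunoglobulin kappa light chains, at 10.2. It ran from 127 in region 6 to 3869 in region 4, with a median of 502, a 30.4-fold range. Region 4 stood far above all others and regions 3, 6 and 8 were at the level of background. Jchain, which joins secreted antibody subunits, was also highest in region 4, at 721, with a median of 241, and varied with Igkc at r = 0.87 (Spearman rho = 0.92, n = 14; r = 0.86 without the 2 farthest regions). Ighm, the mu heavy chain, was highest elsewhere, at 783 in region 15, and varied less closely with Igkc, at r = 0.60 (Spearman rho = 0.66, n = 14; r = 0.66 without the 2 farthest regions). Ms4a1, Cd79a, Cd79b and Pax5, which define B cells, were at background in the mean, with medians of 191, 145, 173 and 133. The immunoglobulin readings thus moved without these B cell genes, which lay too low to show a change. Ebf1, a transcription factor of B cells and of stromal cells, was highest in region 6, at 845, where Igkc was lowest.

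The other genes of large relative spread were spread over several roles. Areg, a ligand of the epidermal growth factor receptor, had a relative spread of 7.32 and ran from 138 in region 13 to 1709.8 in region 6, with a median of 263. Mfap4, an extracellular matrix glycoprotein, had 7.11 and ran from 506 in region 6 to 6799.5 in region 13, with a median of 3162. Mmp2, a secreted collagenase, had 6.93 and ran from 379 in region 6 to 5870.3 in region 15, with a median of 2200.2. Mfap4 and Mmp2 were both lowest in region 6, where Areg was highest. Region 10 was the next lowest for both, at 594 for Mfap4 and 558 for Mmp2. The r between Mfap4 and Mmp2 was 0.48 over all regions and 0.01 without regions 6 and 10, the 2 farthest from the median of Mfap4. Car9, the membrane carbonic anhydrase induced by HIF, and Fcrls, a receptor of microglia and some tissue macrophages, had 7.07 and 6.47. The rest of the 20 were Tm9sf5, Car6, Ier3, P4ha2, Ero1a, Ndufa4l2, Stbd1, Cox6a2, Ebf1, Vldlr, Bnip3, Cxcl9, Ptgs2 and Zscan4c, and 12 of the 20 belonged to a single group of genes that varied together, the group of Ero1a.

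**Figure D2:**
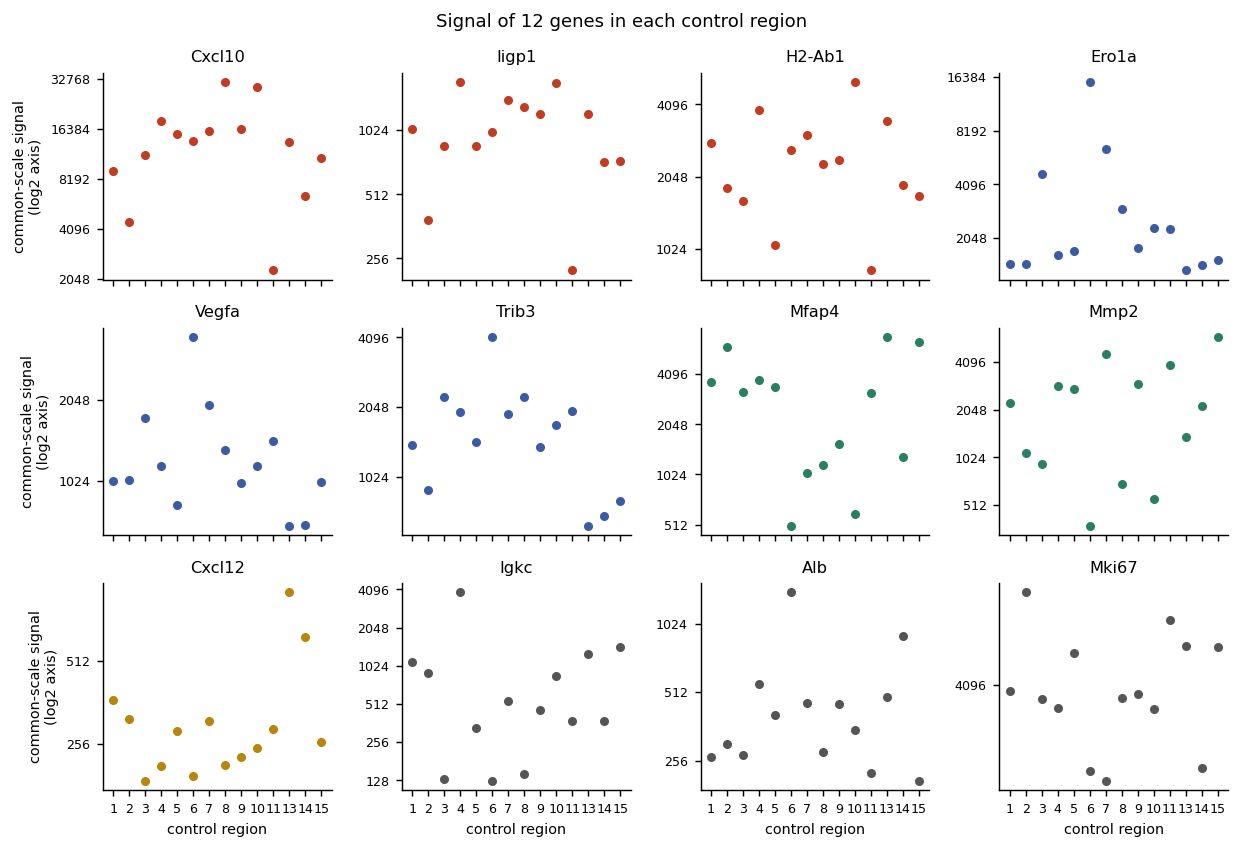
Common-scale signal of 12 genes in each control region, on a log2 axis with its own range in each panel. Cxcl10, Iigp1 and H2-Ab1 were lowest in region 11, Ero1a, Vegfa and Trib3 highest in region 6, Mfap4 and Mmp2 lowest in region 6, Cxcl12 highest in region 13 and Igkc highest in region 4, while Mki67 stayed within a 1.95-fold range.

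The 300 genes above background with the largest relative spread were clustered by the correlation of their levels over the regions. The 300th gene had a relative spread of 2.75133 and the next 2.75066. The genes fell into 4 groups of 8 or more that held 237 of them, and 63 were in none. Groups are called here by their leading genes, those closest to the group's mean. The Slfn1 group had 89 genes, the Pmp22 group 70, the Ero1a group 60 and the Ccdc80 group 18. The median correlation between members was 0.75, 0.70, 0.77 and 0.80 in that order, against 0.24 over all genes above background. As the clustering chose the members for their correlation, these values only describe the groups.

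**Figure D3:**
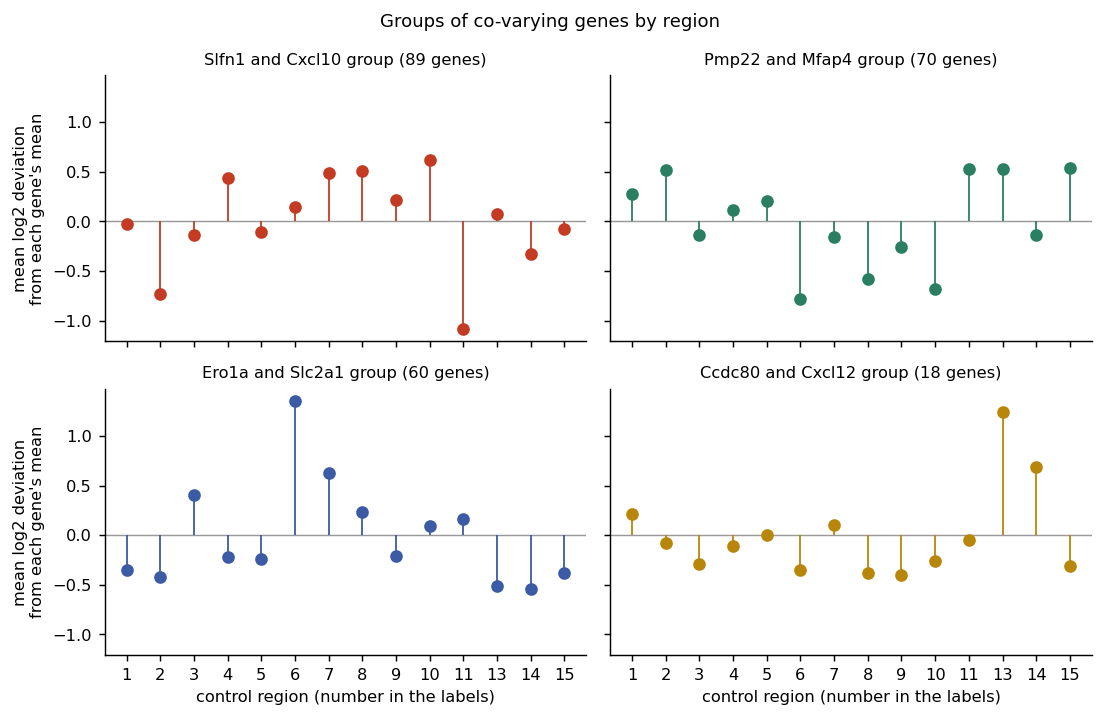
Mean log2 deviation of the members of each group from their own means (vertical axis, log2 units) in the 14 control regions (horizontal axis). The Slfn1 and Cxcl10 group was lowest in regions 11 and 2, the Pmp22 and Mfap4 group in regions 6, 10 and 8, and the Ero1a and Slc2a1 group was highest in region 6, at 1.35, and the Ccdc80 and Cxcl12 group in region 13, at 1.24.

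Of the 89 members of the largest group 34 were in one of the gene lists, with 21 of the interferon response, 6 of class II and 2 of class I antigen presentation. The members closest to its mean were Slfn1, Tgtp1, Klra2, Gbp5, Iigp1 and Igtp. Tgtp1, Igtp and Iigp1 encode immunity-related GTPases and Gbp5 a guanylate-binding protein, all of them effectors that interferon gamma induces against intracellular pathogens, Slfn1 is a Schlafen gene of the interferon response, and Klra2 belongs to the Ly49 receptor family. The group's mean deviation was -1.09 in region 11 and -0.73 in region 2, and 0.62, 0.51, 0.49 and 0.44 in regions 10, 8, 7 and 4. Of the 89 members, 72 were lowest in region 11, while the region of the highest reading varied, with 18 members highest in region 10. It was low regions more than high ones that set this group apart.

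Interferon target genes carry short sites for interferon regulatory factors and STAT complexes before their start. The letters GAAA repeated with any 2 bases between them, searched on both strands in the window from 250 bases before to 50 bases after the gene start, were found in 25 of the 69 members with a RefSeq promoter (36.2%), against 3.49% of all 27025 promoters and 3.23% of the promoters of genes above background. In the interferon response list 15 of 24 promoters (62.5%) held them, and in the Pmp22 group 1 of 55 (1.82%). The promoters of the 2 leading members that hold a match are shown because they carry that pattern, from RefSeq on GRCm38.p6, 5′ to 3′ on the strand of the gene and with the match in capitals. In Gbp5 the match is on the opposite strand.
Tgtp1 (chr11:48992197-48992496, minus strand): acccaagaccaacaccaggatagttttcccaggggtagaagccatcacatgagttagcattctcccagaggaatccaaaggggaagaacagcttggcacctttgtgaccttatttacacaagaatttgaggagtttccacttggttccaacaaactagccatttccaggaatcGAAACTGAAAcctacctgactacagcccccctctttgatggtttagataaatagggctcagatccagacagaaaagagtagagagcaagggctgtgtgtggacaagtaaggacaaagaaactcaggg
Gbp5 (chr3:142496684-142496983, plus strand): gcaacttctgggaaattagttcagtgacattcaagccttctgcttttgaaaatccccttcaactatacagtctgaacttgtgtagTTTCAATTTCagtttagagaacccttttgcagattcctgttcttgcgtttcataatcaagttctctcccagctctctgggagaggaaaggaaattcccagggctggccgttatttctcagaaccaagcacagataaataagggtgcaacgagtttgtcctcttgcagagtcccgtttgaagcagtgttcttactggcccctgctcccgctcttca
The matches began at -77 and -165 relative to the gene start. A match is only a description of the letters, not a site at which a factor was seen.

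Cxcl10, a chemokine that draws activated T cells, was the member with the highest readings among those of largest spread. It ran from 2297 in region 11 to 31324 in region 8, with a median of 13725, and its reading in region 2 was 4514. Cxcl9, a chemokine for the same receptor, ran from 191 in region 11 to 1036 in region 13, with a median of 595, and varied with Cxcl10 at r = 0.76 (Spearman rho = 0.71, n = 14; r = 0.44 without the 2 farthest regions). Iigp1 ran from 225 in region 11 to 1722 in region 4, with a median of 1021, so that region 11 lay at the background limit. Region 11 was the lowest for all 3 and the other regions differed in their order.

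The 29 interferon response genes above background included 21 members of this group, and 27 of them had a relative spread over 2. Their median relative spread was 3.66, against 1 over all genes above background, and their median pairwise correlation was 0.86. The list mean was -1.32 log2 units from its average in region 11, -0.73 in region 2 and 0.63 in region 8. Rsad2, the antiviral enzyme viperin, ran from 555 in region 11 to 4223 in region 8, with a median of 1825. Bst2, the tether that holds budding virus at the cell surface, was the next highest member of the list after Cxcl10, from 5538 in region 14 to 17018 in region 8, with a median of 11343. Without regions 2 and 11 the median correlation between the interferon response genes was 0.70, so the genes still varied together in the remaining 12 regions.

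Class I genes followed a similar order of regions. H2-K1 and H2-D1, which encode class I heavy chains, varied together at r = 0.99 (Spearman rho = 0.97, n = 14; r = 0.99 without the 2 farthest regions). H2-K1 ran from 11682 in region 11 to 47812 in region 6, with a median of 30625, and H2-D1 from 12722 in region 11 to 43288 in region 6, with a median of 26331. Both were lowest in region 11 and highest in region 6, but their probes may share reads, as class I genes are alike in sequence. Nlrc5, the activator of class I genes, ran from 602 in region 11 to 2102 in region 10, with a median of 1519 and varied with H2-K1 at r = 0.94 (Spearman rho = 0.83, n = 14; r = 0.79 without the 2 farthest regions). Psmb9, a subunit of the immunoproteasome, ran from 1050.1 in region 11 to 3879 in region 4, with a median of 2936. The mean of the 12 class I genes varied with that of the interferon response list at r = 0.94 (Spearman rho = 0.83, n = 14; r = 0.79 without the 2 farthest regions).

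Class II genes formed a tighter set of their own. H2-Ab1, which encodes a class II beta chain, ran from 831 in region 11 to 5076 in region 10, with a median of 2354. H2-Aa, its alpha chain partner, varied with it at r = 0.99 (Spearman rho = 0.99, n = 14; r = 0.98 without the 2 farthest regions), and Cd74, the invariant chain, at r = 0.99 (Spearman rho = 0.98, n = 14; r = 0.98 without the 2 farthest regions). Ciita, the activator of class II genes, varied with H2-Ab1 at r = 0.95 (Spearman rho = 0.94, n = 14; r = 0.90 without the 2 farthest regions). Regions 10, 4 and 13 were the highest and regions 11 and 5 the lowest, whereas region 5 was close to average for the interferon response genes, with a list deviation of 0.19 against -0.79 for the 7 class II genes. Region 13 was near average in the interferon response, at 0.00, but high in class II, at 0.63. All 7 class II genes above background had a relative spread over 2, with a median of 3.64 and a median pairwise correlation of 0.91.

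Transcripts of T or NK cells were low and moved in part with the interferon genes. Ccl5, a chemokine of T cells, NK cells and macrophages, was the highest of the 9 measured above background, from 511 in region 2 to 3101 in region 8, with a median of 1209. Trac, the T cell receptor alpha constant region, ran from 179.6 in region 11 to 413 in region 10, with a median of 305. Il2rb, a subunit of the interleukin-2 receptor, ran from 194 in region 2 to 516 in region 10, with a median of 347, and Nkg7, a cytotoxic granule gene, from 223 in region 11 to 441 in region 10, with a median of 303. Region 10 was the highest for Trac, Il2rb and Nkg7, and region 2 or 11 the lowest, but all 3 had medians less than 2-fold above the background limit. The level of the T or NK cell markers together varied with the Slfn1 group at r = 0.84 (Spearman rho = 0.70, n = 14; r = 0.63 without the 2 farthest regions), and 2 of its 9 genes, Ccl5 and Trac, belong to the group. With the interferon response list the T or NK cell level had r = 0.78 (Spearman rho = 0.49, n = 14; r = 0.48 without the 2 farthest regions). The part of the T or NK cell level in the group's differences was not tested.

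Cd274, which encodes PD-L1, the ligand that restrains T cells, was itself a member of the Slfn1 group, at r = 0.94 with the other members. It ran from 440.4 in region 2 to 1233 in region 4, with a median of 804, and its reading in region 11 was 470.3. It varied with Iigp1 at r = 0.95 (Spearman rho = 0.98, n = 14; r = 0.96 without the 2 farthest regions). Cmtm6, whose product keeps PD-L1 at the cell surface, ran from 605 in region 11 to 829 in region 8, with a median of 759. Its relative spread of 0.863 was somewhat below that of a typical gene. It had r = 0.64 with the Slfn1 group and 0.63 with the log2 total of the region. With Cd274 it varied at r = 0.49 (Spearman rho = 0.45, n = 14; r = 0.12 without the 2 farthest regions). The lowest reading of Cmtm6 was also in region 11, which is 1 of the 2 regions left out in the last value.

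Some genes of inflammation varied with this group as well. The mean of 13 NF-kB feedback and cytokine genes varied with the group at r = 0.86 (Spearman rho = 0.91, n = 14; r = 0.85 without the 2 farthest regions). Il1b, the inflammatory cytokine interleukin-1 beta, is a member of the group and ran from 164 in region 11 to 429 in region 8, with a median of 231, close to background in most regions. Ccl2, a chemokine for monocytes, ran from 1458 in region 14 to 3964 in region 13, with a median of 2707, and Ccl7, a related chemokine, from 573 in region 6 to 1699.7 in region 7, with a median of 1198. Ccl2 and Ccl7 had r = 0.68 and 0.34 with the group. Nfkb2, the member of the list with the highest mean level, had r = -0.14 with it. The median pairwise correlation of the list was 0.45, so its genes did not all follow the group.

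The group held genes that lie side by side in the genome. Of the 88 members with a RefSeq position, 29 (33.0%) had another member as their immediate neighbour among the targets, in clusters of Oas, Gbp, Slfn, Ifit, Trim30 and class II genes. The share was 14.3% in the Pmp22 group (10 of 70), 3.33% in the Ero1a group (Areg and Ereg) and 0 of 18 in the Ccdc80 group. A larger group has more neighbours by its size alone, and the share over all targets was not computed. The shares of the groups are therefore not comparable. Neighbours of this kind are often copies of each other, whose probes can share reads, so part of their common variation cannot be told apart from shared signal.

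Of the 60 members of the Ero1a group 29 were in one of the gene lists, with 14 of the hypoxia response and 6 of the ATF4 response. The members closest to its mean were Ero1a, Slc2a1, Ak4, Vegfa, Ier3 and Phospho1. Ero1a encodes an oxidase that forms disulfide bonds in the endoplasmic reticulum, Slc2a1 the glucose transporter Glut1, Ak4 a mitochondrial adenylate kinase, Vegfa the vessel growth factor, Ier3 an early response gene and Phospho1 a phosphatase. The group's mean deviation was 1.35 in region 6, 0.63 in region 7 and 0.40 in region 3, and -0.54 in region 14, the lowest, a 3.71-fold range. Of the 60 members 45 were highest in region 6. In contrast to the Slfn1 group, it was high regions that set this group apart.

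HIF binds the core letters ACGTG. These were found, on either strand, in 23 of the 50 members with a RefSeq promoter (46.0%), against 19.7% of all promoters and 26.3% of the promoters of genes above background. In the hypoxia response list 12 of 18 promoters (66.7%) held them, and in the Slfn1 group 9 of 69 (13.0%). Some other lists also had high shares: 6 of 13 immediate early promoters (46.2%), 6 of 15 of ER chaperones (40%) and 7 of 19 of mitosis genes (36.8%). Others had low ones, such as 1 of 24 in the interferon response list (4.17%). The letters were thus not particular to the hypoxia genes. The promoters of Ero1a and Slc2a1, the 2 members closest to the mean, are shown with the match in capitals. In Ero1a the match is on the opposite strand.
Ero1a (chr14:45318523-45318822, minus strand): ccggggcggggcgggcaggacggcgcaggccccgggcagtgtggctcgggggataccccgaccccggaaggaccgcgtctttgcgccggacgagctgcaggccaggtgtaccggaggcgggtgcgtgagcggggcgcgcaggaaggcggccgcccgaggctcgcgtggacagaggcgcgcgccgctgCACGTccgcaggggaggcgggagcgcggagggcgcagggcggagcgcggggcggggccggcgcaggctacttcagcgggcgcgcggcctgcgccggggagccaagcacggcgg
Slc2a1 (chr4:119108495-119108794, plus strand): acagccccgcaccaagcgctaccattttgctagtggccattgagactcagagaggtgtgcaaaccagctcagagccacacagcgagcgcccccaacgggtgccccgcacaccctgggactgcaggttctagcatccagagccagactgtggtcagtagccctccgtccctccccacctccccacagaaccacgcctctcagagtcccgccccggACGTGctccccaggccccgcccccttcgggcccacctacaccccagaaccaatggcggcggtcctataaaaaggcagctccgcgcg
The matches began at -63 and -36 relative to the gene start. The letters are short and common, and the window does not include distant sites.

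Ero1a ran from 1343 in region 13 to 15369 in region 6, with a median of 1761, with 6435 in region 7 and 4654 in region 3. Slc2a1 ran from 600.3 in region 13 to 2987 in region 6, with a median of 769, with 2052 in region 7. Vegfa ran from 697 in region 13 to 3505 in region 6, with a median of 1097, with 1955 in region 7. For all 3, region 6 was the highest and region 13 the lowest. Slc2a1 and Vegfa varied together at r = 0.93 (Spearman rho = 0.83, n = 14; r = 0.81 without the 2 farthest regions).

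Of the 19 hypoxia response genes above background, 18 had a relative spread over 2 and 14 belonged to the group. Their median relative spread was 3.06 and their median pairwise correlation 0.88. Car9 and P4ha2, a collagen prolyl hydroxylase, were highest in region 7 instead of region 6, at 1964 and 3899. Their readings in region 6 were 1269 and 3419. Bnip3, a mitophagy receptor, was highest in region 6, at 3547. Fam162a and Ddit4, an inhibitor of mTOR signalling, were the highest readings of the list, from 1752 to 6860.5 and from 2518 to 7013. Regions 6 and 7 thus shared the hypoxia program but not the order of its genes. Without these regions, the hypoxia response genes kept a median pairwise correlation of 0.76.

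Glycolytic genes moved with the hypoxia genes over a smaller range. The means of the 18 glycolysis genes and of the hypoxia response list varied together at r = 0.96 (Spearman rho = 0.96, n = 14; r = 0.94 without the 2 farthest regions), and the glycolysis mean spanned 2.02-fold between region 14 and region 6 against 3.25-fold for the hypoxia response. Hk2, the hexokinase that traps glucose in the cell, ran from 608 in region 14 to 1792 in region 6, with a median of 916. Slc16a3, the lactate exporter MCT4, ran from 3441 in region 4 to 11576 in region 6, with a median of 4845. Pgk1, phosphoglycerate kinase, ran from 6065 in region 14 to 18777 in region 6, with a median of 7980, and Pfkp, a phosphofructokinase, from 779.7 in region 14 to 1832 in region 6, with a median of 936. Hk2 and Slc16a3 were members of the Ero1a group, whereas Pgk1 and Pfkp, with r = 0.95 and 0.96, varied as closely but were below the 300 genes of largest relative spread. Eno1, enolase, was the second highest gene of the list after Gapdh, from 19761 in region 14 to 53303 in region 6, with a median of 29053.

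The 6 genes of the ATF4 list in the group were a smaller part of it. Trib3, a pseudokinase induced by ATF4, ran from 629 in region 13 to 4096 in region 6, with a median of 1578. Adm2, a secreted peptide, ran from 341 in region 14 to 1345 in region 6, with a median of 595, and Aldh1l2, a mitochondrial folate enzyme, from 484 in region 14 to 2884 in region 6, with a median of 917. Region 6 was the highest for all 3, but regions 3, 4, 8 and 11 had more Trib3 than region 7, at 2271, 1956, 2254 and 1961 against 1911. Slc7a5 and Slc3a2, the light and heavy chains of an amino acid transporter, had the highest readings of the list and spanned 4657 to 10752 and 4870.0 to 11428. The mean of the 20 ATF4 genes varied with glycolysis at r = 0.85 (Spearman rho = 0.84, n = 14; r = 0.84 without the 2 farthest regions), and was 0.70 in region 6 and -0.71 in region 14. The letters TGATGNAA, the composite site of ATF4, were found in 5 of 18 promoters of this list (27.8%) but in 2 of 50 of the Ero1a group (4.00%), against 4.06% of all promoters and 2.24% of the promoters of genes above background.

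Several other stress genes shared the pattern. Gdf15, a stress cytokine, ran from 295 in region 13 to 1528 in region 6, with a median of 449, and Cdkn1a, the cell cycle inhibitor p21, from 694 in region 2 to 2108 in region 8, with a median of 1018. Of 12 p53 target genes above background, 4 were in the Ero1a group and 1, Sesn1, in the Pmp22 group, with opposite order of regions. Ccng1, another p53 target, had r = -0.63 with the Ero1a group. Ptgs2, cyclooxygenase 2, ran from 410.4 in region 11 to 2508 in region 6, with a median of 554. Hmox1, heme oxygenase, ran from 1365 in region 14 to 5041 in region 6, with a median of 1838, and Slc7a11, the cystine importer, from 281 in region 13 to 992 in region 6, with a median of 473. Both are in the list of 14 NRF2 target genes, of which only 2 were in the Ero1a group. The mean of that list had r = 0.69 with the group (Spearman rho = 0.47, n = 14; r = 0.48 without the 2 farthest regions), and its member Gstm1 had r = -0.11. Areg and Ereg, both ligands of the epidermal growth factor receptor and neighbours in the genome, varied together at r = 0.94 (Spearman rho = 0.82, n = 14; r = 0.81 without the 2 farthest regions). The abundant Spp1 had r = 0.86 with the group and varied with Slc2a1 at r = 0.84 (Spearman rho = 0.75, n = 14; r = 0.56 without the 2 farthest regions). Of the 17 ER chaperone genes, which serve protein folding, 0 had a relative spread over 2, near the share of 6.10% over all genes above background. Their mean did not share the pattern, with r = 0.11 with the group. The mean of the immediate early genes did, at r = 0.83 (Spearman rho = 0.83, n = 14; r = 0.69 without the 2 farthest regions). The chaperone mean followed the log2 total of the region instead, with r = 0.76.

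**Figure D4:**
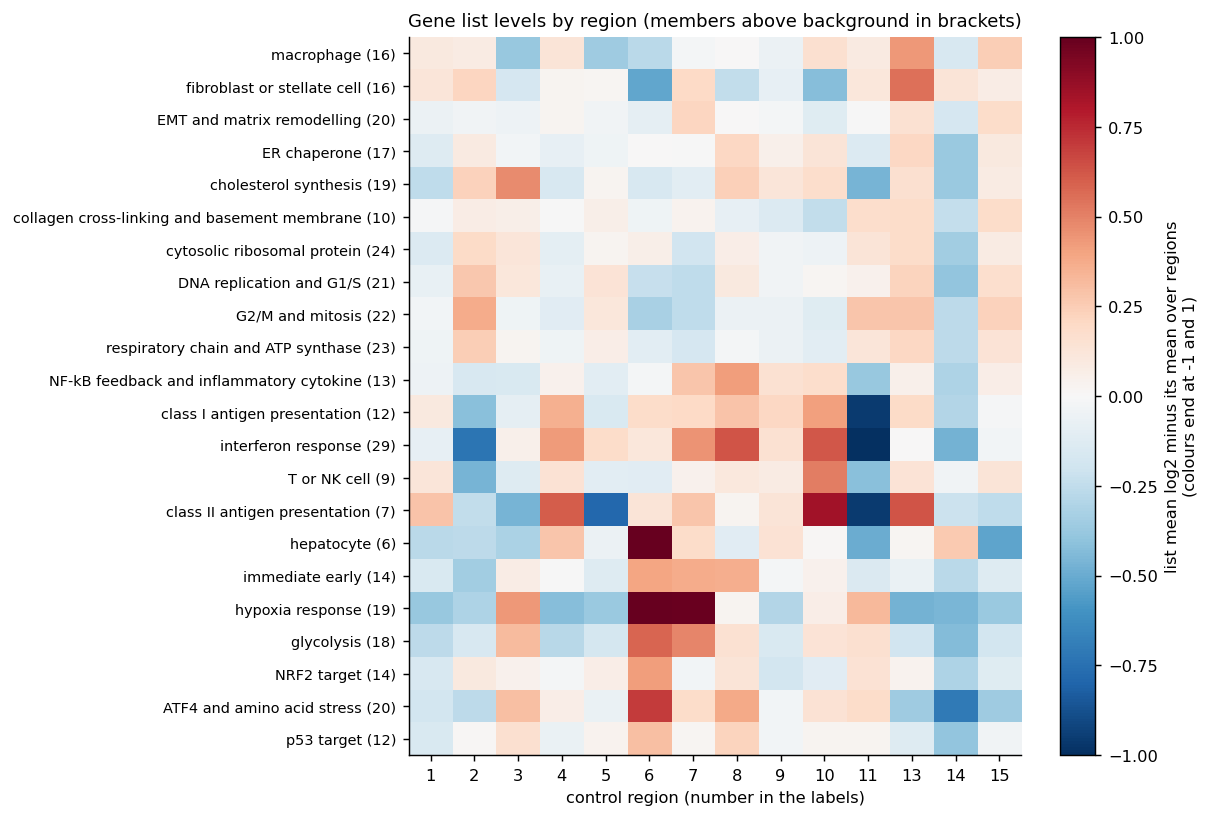
Mean log2 level of each gene list minus its own mean over regions, by control region (columns) and list (rows, with the number of members above background). Blue is lower and red higher, and colors end at -1 and 1. Regions 6 and 7 stood out for hypoxia response and glycolysis, regions 2 and 11 for low interferon response, and region 14 was low in most lists.

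Of the 70 members of the Pmp22 group only 10 were in one of the gene lists, with 3 of EMT and matrix remodelling, 2 of fibroblasts or stellate cells and 2 of collagen cross-linking and basement membrane. The members closest to its mean were Pmp22, Maged2, Timp2, Prrx2, Fam171a1 and Mxd4. Pmp22 is a membrane protein of Schwann cells and growth-arrested fibroblasts, Timp2 an inhibitor of matrix metalloproteinases, Prrx2 a homeobox factor of mesenchyme and Mxd4 an antagonist of Myc. The group's mean deviation was -0.78 in region 6, -0.68 in region 10 and -0.58 in region 8, and between 0.52 and 0.54 in regions 2, 11, 13 and 15. Pmp22 ran from 362 in region 6 to 1935 in region 11, with a median of 986, and Timp2 from 843 in region 6 to 3777 in region 13, with a median of 2056. No region stood alone at the top, since only 11 of the 70 members were highest in region 15, and 33 were lowest in region 6.

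Collagens and macrophage genes were found in this group and beside it. Col1a1, a chain of type I collagen, ran from 2219 in region 6 to 15296 in region 13, with a median of 5919.6 and was a member, at r = 0.73. Col3a1, type III collagen, ran from 9974 in region 6 to 33235 in region 3, with a median of 23892, and Col6a1, a type VI chain, from 7038 in region 10 to 23231 in region 2, with a median of 15099.6. Col6a1 had r = 0.93 with the group although its relative spread of 2.57 kept it out of the 300. The 2 chains of type I collagen did not move in step, as Col1a1 and Col1a2 had r = 0.54 (Spearman rho = 0.52, n = 14; r = 0.28 without the 2 farthest regions). Fibroblast genes as a list had a median pairwise correlation of only 0.17, under the 0.24 of all genes above background, although 14 of 16 had a relative spread over 2. These genes thus varied much but not as 1 set, with 2 in the Pmp22 group and 4 in the Ccdc80 group.

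Mrc1, the mannose receptor CD206 of tissue macrophages, was a member, from 198 in region 6 to 572 in region 13, with a median of 309, and varied with Mfap4 at r = 0.79 (Spearman rho = 0.80, n = 14; r = 0.70 without the 2 farthest regions). Mrc1 and Mfap4 had r = -0.66 and -0.90 with the background ratio, whose part in their relation was not tested. C1qa, C1qb and C1qc, which encode the chains of complement C1q and are made by macrophages, were steadier and varied closely with each other, at r = 0.99 (Spearman rho = 0.98, n = 14; r = 0.98 without the 2 farthest regions). C1qb ran from 2683 in region 3 to 6259 in region 13, with a median of 3939.8, and varied with Mrc1 at r = 0.71 (Spearman rho = 0.66, n = 14; r = 0.59 without the 2 farthest regions). Lyz2, lysozyme, ran from 233 in region 3 to 711 in region 13, with a median of 426. C1qb, Lyz2 and Mrc1 were all highest in region 13. Ctss, the cathepsin of antigen-presenting cells, had the highest reading of the macrophage list and another order, from 4284 in region 5 to 10112 in region 10, with a median of 6601, with r = 0.72 with the Slfn1 group.

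The Pmp22 group ran against the Slfn1 and Ero1a groups. It varied with the Slfn1 group at r = -0.63 (Spearman rho = -0.62, n = 14; r = -0.49 without the 2 farthest regions) and with the Ero1a group at r = -0.65 (Spearman rho = -0.67, n = 14; r = -0.49 without the 2 farthest regions). It also followed the background ratio of the region, with r = -0.81, against 0.37, 0.44 and -0.20 for the Slfn1, Ero1a and Ccdc80 groups. The part of the background ratio in these relations was not tested directly. With the background ratio and the log2 total held constant, the correlation with the Slfn1 group was -0.43. Between the Slfn1 and Ero1a groups the correlation was smaller in size, at r = 0.25 (Spearman rho = 0.41, n = 14; r = 0.35 without the 2 farthest regions).

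Proliferation genes varied with the Pmp22 group over a much smaller range. The mean of 22 G2/M and mitosis genes had r = 0.81 (Spearman rho = 0.81, n = 14; r = 0.79 without the 2 farthest regions) with it, but spanned only 1.62-fold, between region 6 and region 2. The group and the mitosis list each had r = -0.81 with the background ratio, and the part of that ratio in their relation was not tested. Mki67, the proliferation marker Ki-67, ran from 2918 in region 7 to 5688 in region 2, with a median of 3939.6. Bub1b, a spindle checkpoint kinase, ran from 1197 in region 6 to 2660.3 in region 2, with a median of 1798, and Ccnb2, cyclin B2, from 709 in region 6 to 1605 in region 2, with a median of 1059. Mitosis genes were lowest in region 6, the region with the most hypoxia transcripts, and the correlation of Mki67 with Slc2a1 was r = -0.59 (Spearman rho = -0.62, n = 14; r = -0.18 without the 2 farthest regions), where the 2 regions left out are 6 and 7. The list means of hypoxia response and of G2/M had r = -0.48 over all regions and -0.01 without regions 6 and 7.

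Genes of growth and energy varied together on the common-median scale. The 24 ribosomal protein genes, 23 respiratory chain genes, 21 DNA replication genes and 22 mitosis genes had list correlations between 0.71 and 0.94, all 4 lists were highest in region 2, and 3 were lowest in region 14 and the mitosis genes in region 6. The 4 lists followed the background ratio, with r = -0.64 for ribosomal protein, -0.87 for respiratory chain, -0.75 for DNA replication and -0.81 for mitosis genes. The correlation of the ribosomal protein and respiratory chain lists was 0.88, and 0.82 given the log2 total and the background ratio. It was 0.51 with the deposited values, 0.36 with the same total in every region and 0.06 under quantile normalization. The correlation of this pair thus depended on the scaling, and none of the 4 lists had a median relative spread over 2.

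**Figure D5:**
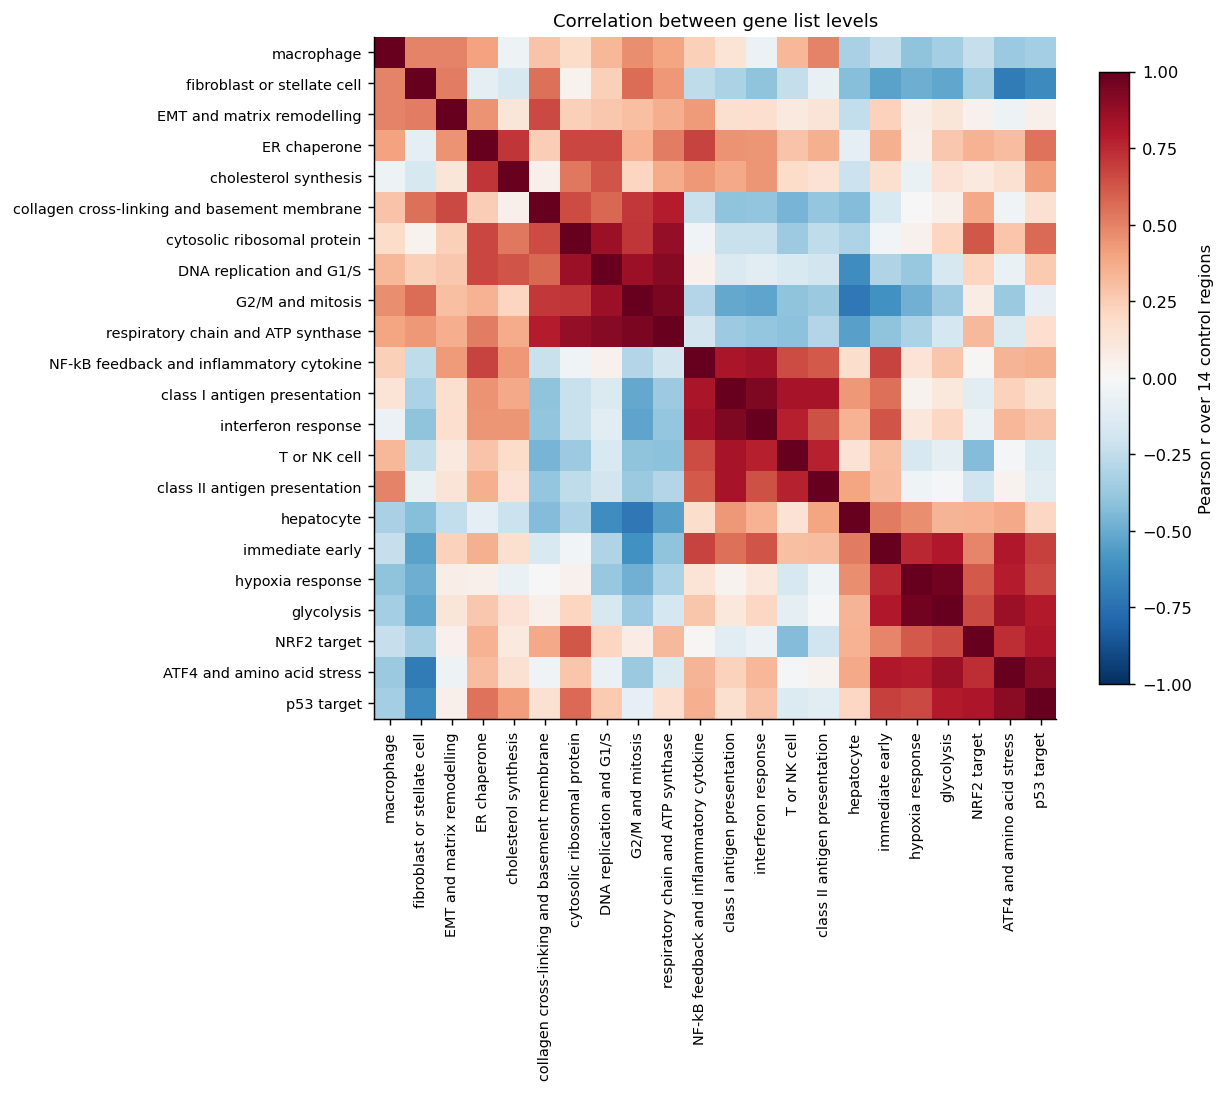
Pearson r between the mean log2 levels of 22 gene lists over 14 control regions, from -1 (blue) to 1 (red). Of the 230 pairs of lists that share no gene, 16 had r over 0.8 and 0 under -0.8, and 3 blocks appear: growth and respiration, interferon and antigen presentation, and hypoxia with stress. Levels are on the common-median scale, and the correlation of the ribosomal protein and respiratory chain lists depended on the scaling.

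The 19 cholesterol synthesis genes had a median pairwise correlation of 0.85 with a median relative spread of 1.64. Fdps, which makes farnesyl diphosphate, ran from 4945 in region 11 to 11163 in region 3, with a median of 7442, and Cyp51, lanosterol demethylase, from 4078 in region 11 to 8002 in region 3, with a median of 5938. Idi1 and Insig1, an isomerase of the pathway and its sterol sensor partner, were lowest in region 11 and highest in region 3 as well. Region 3 stood highest for the list, at 0.47, and region 11 lowest, at -0.46, with r between -0.25 and 0.32 with the 4 groups. Among the other lists it varied most closely with the ER chaperones, at r = 0.72 (Spearman rho = 0.74, n = 14; r = 0.68 without the 2 farthest regions), and with DNA replication, at r = 0.63 (Spearman rho = 0.62, n = 14; r = 0.67 without the 2 farthest regions).

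Of the 18 members of the smallest group 5 were in one of the gene lists, 4 of fibroblasts or stellate cells and 1 of red blood cells. The members closest to its mean were Ccdc80, Cxcl12, Igfbp7, Slit3, Serpina3n and Sfrp1. Cxcl12 is a chemokine made by stromal cells, Slit3 a guidance ligand, Sfrp1 a secreted antagonist of Wnt signalling and Igfbp7 a binding protein of insulin-like growth factors. The group's mean was 1.24 in region 13 and 0.69 in region 14, and between -0.40 and 0.21 in the others, so that it rested on these 2 regions. Cxcl12 ran from 189 in region 3 to 905 in region 13, with a median of 273, with 627 in region 14. Bgn, the proteoglycan biglycan, ran from 388 in region 9 to 1918 in region 13, with a median of 706. Acta2, smooth muscle actin, ran from 225 in region 15 to 744 in region 13, with a median of 299. Of the 18 members 17 were highest in region 13. Without regions 13 and 14 the median correlation of the members was 0.45 instead of 0.80.

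Globin genes were in the group through region 13. Hba-a1, an alpha globin of red blood cells, ran from 326 in region 3 to 1446 in region 13, with a median of 407, and Hbb-b1, a beta globin, from 164 in region 9 to 721 in region 13, with a median of 215. In region 14 the readings were 529 and 289. Alas2 and Slc4a1, which also mark red blood cells, were at background in every mean. Cdh5 and Eng, which mark endothelium, were highest in region 4 and not in region 13, at 909 and 908.

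Hepatocyte transcripts were highest in region 6. Alb, albumin, ran from 209 in region 15 to 1403 in region 6, with a median of 377, with 904 in region 14. Apoa1, an apolipoprotein of plasma, ran from 149 in region 11 to 859 in region 6, with a median of 246, and Trf, transferrin, from 178 in region 3 to 1136 in region 6, with a median of 240.0. The list mean was 1.15 in region 6 and at most 0.28 elsewhere. Fgb, Fga, Fgg, Hpx and Ahsg, plasma protein genes whose means were under the background limit, were also highest in region 6, at 682, 599, 539.5, 1237 and 739, which was noticed after their values were seen. Ass1, an enzyme of the urea cycle that tumor and immune cells also use, did not follow them, as it was highest in region 4 and had r = 0.93 with the Slfn1 group. Region 6 thus combined the highest hypoxia, stress and hepatocyte readings with the lowest readings of Col1a1, Col3a1 and the mitosis list. The hepatocyte list varied with the hypoxia response list at r = 0.46 (Spearman rho = -0.05, n = 14; r = -0.20 without the 2 farthest regions), and without regions 6 and 7 at r = -0.46. The part of hepatocyte RNA in the other readings of region 6 was not tested.

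Of the 13 neutrophil markers 3 were above background. Mmp9, a gelatinase of neutrophils and macrophages, ran from 313 in region 6 to 1739.7 in region 14, with a median of 493. S100a9, the calcium-binding protein abundant in neutrophils, stayed within 388 to 563 and did not move with Mmp9, at r = -0.18 (Spearman rho = -0.23, n = 14; r = -0.05 without the 2 farthest regions). Csf3r, the receptor of the granulocyte growth factor G-CSF, ran from 226 in region 5 to 358 in region 7, with a median of 282, and had r = 0.79 with the Slfn1 group. S100a8, Ly6g, Cxcr2, Camp and Ngp were at background.

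The genes the study was built on were measured in all 14 regions. Slc2a1 was the most variable of them, as given above, and had the profile of the hypoxia genes. Rab11a and Rab11b, small GTPases of recycling endosomes, ran from 904 in region 14 to 1240.3 in region 2, with a median of 1125 and from 2222 in region 14 to 3491 in region 2, with a median of 2938. Rab11a and Rab11b had r = -0.62 and -0.93 with the background ratio, whose part in their ranges was not tested. Cmtm6 and Slc2a1 showed little relation to each other at the level of RNA, with r = 0.04 (Spearman rho = -0.05, n = 14; r = -0.12 without the 2 farthest regions). The relative spread was 0.863 for Cmtm6, 0.73 for Rab11a, 1.07 for Rab11b, 1.5 for Mki67, 2.83 for Cd274 and 4.46 for Slc2a1. Of these 6 genes Cd274 and Slc2a1 exceeded 2, and each belonged to a different group of co-varying genes.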

How the data were processed

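Formalin-fixed sections of MC38 liver metastases were hybridised with the GeoMx mouse whole-transcriptome panel, tags released from each area were sequenced on a NextSeq 2000, and the counts per probe were processed in the GeoMx DSP Analysis Suite. Its release and the genome build were not given in the sources used here. For each of 19615 targets and each region the authors deposited a normalized signal. Within the control label the deposited signal had the same upper quartile in every region (CV 0.184%), while medians differed (CV 6.57%). At least 99.9% of a region's values were whole multiples of 1 step (within 0.01 of a whole number). The step may be 1 count, which the files do not settle, so no count test was run, and values that take 1 step as 1 count are given as checks only.

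Groups came from the labels, and region numbers from the sample titles. The 14 control columns were set to a common median and log2(value + 1) was taken. Background was percentile 95 of 1125 chemosensory receptor genes (odorant, vomeronasal, taste and trace amine). Relative spread used the 250 genes on either side in level. The 300 genes of largest relative spread were clustered (average linkage on 1 - r, threshold 0.5, groups of 8 or more). No test was made, because there is 1 group and regions share mice. Correlations are Pearson's r and Spearman's rho over 14 regions, with r again without the 2 regions farthest from the median of the first measure. The other 13 regions were not used. RefSeq promoters (GRCm38.p6) run from 250 bases before to 50 after the start.

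The genes named were the 20 highest, the 20 of largest relative spread, up to 6 closest to the mean and 4 most variable in each group, up to 4 most variable and 2 highest in each list, the 5 steadiest of the 1000 highest, and Cmtm6, Slc2a1, Rab11a, Rab11b, Cd274 and Mki67. Some genes that the rule names are not reported here. Subunit partners and markers outside this rule, and gene pairs, were chosen after their values were seen. The gene lists, members and rules were chosen with earlier results of these data known. The procedures were tested on simulated data. Alternatives were other scalings, pseudocounts, background limits and gene numbers, and leaving out regions. Python 3.11.15, numpy 2.4.6, pandas 2.3.3, scipy 1.17.1 and matplotlib 3.10.9 were used.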

Additional observations from a re-analysis of the deposited data

How the results depend on the processing

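The correlations run again under the alternatives were those between groups and between chosen pairs of lists. Those of the groups and of the mitosis, respiratory chain and ribosomal protein lists with the background ratio were also run again. Correlations of single genes and of lists with groups were not. Of the correlations run again, those of 0.5 or more in size kept their sign, and some smaller ones changed it. The hypoxia response with the hepatocyte list went from 0.46 to -0.46 without regions 6 and 7, -0.08 without region 6 and -0.05 with Spearman's rho, and that with the interferon response from 0.11 to -0.14 without regions 6 and 7 and -0.02 without region 7, and was also below 0 given the log2 total and the background ratio. The Ccdc80 group with the background ratio went from -0.20 to 0.21 without region 13. The correlations of the Slfn1 group with the Ero1a group (0.25) and with the Ccdc80 group (-0.16) changed sign given the log2 total and the background ratio, as given below. The count of genes with a relative spread over 2 was 660, and 1017 with the deposited values, 999 with the same total in every region and 1056 with quantile normalization (589 to 844 with 1 region left out). The number of lists with a median relative spread over 2 was 7, and 13, 13 and 15 under those same scalings (6 to 10 with 1 region left out). The 4 groups became 8 without regions 2 and 11, 7 with Spearman's rho, 7 with 600 genes and 7 at a threshold of 0.4 (4 to 8 with 1 region left out, 8 without region 11 and 7 without region 2 or 6). With 150 genes, the 150 clustered were all among the 300.

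The share of the Slfn1 group found together in 1 group was 21.3% without regions 2 and 11 and 41.6% with 150 genes (47.2% to 97.8% with 1 region left out, lowest without region 11). For the Pmp22 group it was 61.4% with the deposited values, 61.4% with the same total, 57.1% with quantile normalization, 41.4% with 150 genes and 65.7% at a threshold of 0.4 (72.9% to 97.1%). For the Ero1a group it was 25% without regions 6 and 7 and 48.3% with 150 genes (40% to 100%, lowest without region 6). For the Ccdc80 group it was 5.56% without regions 13 and 14 (44.4% to 100%, lowest without region 13). With 150 genes most of the difference follows from fewer genes clustered. For the other settings the cause was not tested. With the members held fixed, the median pairwise correlation was 0.59 for the Slfn1 group without regions 2 and 11 and 0.62 for the Ero1a group without regions 6 and 7.

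The correlation of the Slfn1 and Pmp22 groups was -0.49 without regions 2 and 11 and -0.43 given the log2 total and the background ratio. Given both, that of the Slfn1 group was -0.049 with the Ero1a group and 0.20 with the Ccdc80 group, and that of the Pmp22 and Ccdc80 groups 0.14. The Ero1a and Ccdc80 groups had -0.61 without regions 6 and 7 and -0.26 without regions 13 and 14. At percentile 99 of the receptor genes 7911 targets were above background. The settings without regions 2 and 11 and without regions 13 and 14 were chosen after seeing the data. No paired analysis was possible because only 1 group was used. The regions' totals and the background level limit what can be read below a signal of 231.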

Other observations

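Some members of the 4 groups were not genes of the roles described above. Zscan4c and Zscan4b, zinc finger genes known from early mouse embryos and embryonic stem cells, were placed with the Slfn1 group at r = 0.51 and 0.48 with the other members. Zscan4c ran from 244 in region 11 to 1366 in region 13, with a median of 447, and varied with Zscan4b at r = 0.98 (Spearman rho = 0.93, n = 14; r = 0.97 without the 2 farthest regions), where near-identical copies cannot be told apart, but with Cxcl10 only at r = 0.52 (Spearman rho = 0.50, n = 14; r = 0.48 without the 2 farthest regions). Tm9sf5 ran from 131 in region 4 to 1019 in region 9, with a median of 300.5, and had r = -0.13 with Zscan4c, so these genes sat at the edge of the group and did not form 1 pattern.

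H3c1, the target with the highest reading, and Mki67 varied together at r = 0.83 (Spearman rho = 0.82, n = 14; r = 0.76 without the 2 farthest regions). H3c1 and Mki67 had r = -0.57 and -0.80 with the background ratio, and the part of that ratio in their relation was not tested. H1f0, a linker histone, ran from 3281 in region 10 to 8474 in region 2, with a median of 5070.1. Ftl1 and Fth1, the ferritin chains, were highest in region 6, at 23460.2 and 37520.1. Gstm1, a glutathione transferase, was highest in region 11, at 2029, and had r = -0.79 with the Slfn1 group.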
